A study of Homo sapiens with 6 samples.

Results

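The cyclins, the cyclin-dependent kinases (CDKs), their inhibitors and regulators, the retinoblastoma family of pocket proteins and the E2F transcription factors were followed in human osteosarcoma cells grown inside a bone scaffold and in flat culture. The set held 45 genes, chosen by symbol as the core machinery of the cell cycle and matched to 45 of the 62703 Ensembl rows in the table. RNA came from MNNG/HOS Cl #5, a chemically transformed osteosarcoma line labelled as wild type, at day 7 after seeding. The 3D group held 3 libraries from cells inside a scaffold of demineralised bone matrix, and the 2D group held 3 libraries from cells grown flat. Both groups are labelled with the same glucose-rich DMEM with L-glutamine, serum and antibiotics, and no drug or genetic change is labelled in either. The labels do not say whether the libraries of a group came from separate cultures, so the p-values measure the spread between these libraries, which may be technical, and all results concern 1 cell line.

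A cell commits to division when D-type cyclins with CDK4 or CDK6, and then E-type cyclins with CDK2, phosphorylate the pocket proteins RB1, RBL1 (p107) and RBL2 (p130). Phosphorylated pocket proteins release E2F factors, which switch on genes of the G1/S boundary, among them E-type cyclins, CDC25A and E2F1 itself. In resting cells RBL2 with E2F4 and the MuvB core forms the DREAM complex, which holds G1/S and G2/M genes silent. In dividing cells B-MYB and FOXM1 take over the MuvB core and drive the genes of G2 and mitosis. Tumour cells of bone, as of other tissues, often lose the brakes of this circuit, in particular RB1 or the INK4 inhibitors of CDK4 and CDK6.

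Values are FPKM, fragments scaled to gene length and library size, as deposited. Reads worked out from these values summed to 13332512 to 16361254 in the 3D libraries and 13651906 to 14240057 in the 2D libraries. For a gene of 1 kb, 1 read equalled 0.06089 to 0.07472 FPKM. Of all rows, 12843 genes reached 1 FPKM in at least 3 libraries and were tested with limma on log2(FPKM + 1), with Benjamini-Hochberg adjustment over all of them and a threshold of 0.05. Log2 changes below are 3D minus 2D on that scale, which understates the change of low genes. The groups lay apart on principal component 1, with 72.7% of the variance. On component 2, with 10.2%, 3D replicate 1 and 2D replicate 3 lay apart from the other libraries of their groups. For several genes of the set that turn on either, the log2 change is also given without it. Shares, markers and single genes of other lists are not given without these libraries. Of 10 osteoblast markers, COL1A1 and SPARC exceeded 1 FPKM in all 6 libraries while SP7, ALPL and IBSP lay near 0, and the summed list lay at 90.4 to 115.0 FPKM in 3D and 59.3 to 72.4 FPKM in 2D. COL1A1 was called higher at 43.7 ± 6.75 FPKM in 3D and 8.28 ± 1.61 FPKM in 2D (SD, n = 3 each, limma adjusted p = 0.000267). The summed blood and endothelial markers lay at 5.79 to 11.2 FPKM in 3D and 19.0 to 42.0 FPKM in 2D, with the endothelial gene CDH5 at 0 throughout. The haemoglobin gene HBA1 had 1.26, 1.47 and 4.07 FPKM in 3D and 10.6, 16.6 and 1.02 FPKM in 2D. HBB had 0.779, 1.02 and 2.43 FPKM in 3D and 7.6, 5.72 and 0.905 FPKM in 2D. Both overlapped, with 2D replicate 3 low, and neither was called. CD68, a lysosomal protein of macrophages, was called lower at 3.42 ± 0.93 FPKM in 3D and 19.1 ± 2.73 FPKM in 2D (limma adjusted p = 0.000313). The blood cell genes PTPRC and CD14 of the same list did not share that change. PTPRC was untested at 0.0158 ± 0.00612 FPKM in 3D and 0.0206 ± 0.0124 FPKM in 2D. CD14 was not called at 0.874 ± 0.329 FPKM in 3D and 0.716 ± 0.463 FPKM in 2D (limma adjusted p = 0.618). Summed adipocyte and epithelial markers lay at 81.6 to 99.7 FPKM in 3D and 43.2 to 57.5 FPKM in 2D, with ADIPOQ and LEP at 0. Most of that sum was the keratins KRT8 and KRT18, both called higher, with means of 37.9 and 48.2 FPKM in 3D and 21.2 and 28.6 FPKM in 2D. The epithelial gene EPCAM was not called at 1.5 ± 0.153 FPKM in 3D and 1.47 ± 0.172 FPKM in 2D (limma adjusted p = 0.889), and CDH1 lay near 0. The part of any of these markers in the results below was not tested.

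In 3D culture 6 of 7 tested genes of the G1/S transition and 3 of 8 genes of G2 and mitosis were called higher. Of 7 genes grouped here as restraining the cycle, 5 were lower. Those 7 leave out other genes of the set with a restraining role. Among these RB1, RBL1, WEE1, E2F4, E2F6 and E2F8 were called higher and CDKN2D lower, while CDKN2C, CDKN3, E2F5 and E2F7 were not called. Of the 45 genes, 39 were tested, 19 were called higher in 3D, 7 were called lower and 13 were not called. Among all tested genes, 51.4% were called, 33.3% higher and 18.1% lower, so calls were common everywhere. The median log2 change was 0.29 over the 39 tested genes and 0.144 over all tested genes. The 6 untested genes were CCND2, CDKN1C, CDKN2A, CDKN2B, SKP2 and E2F2, all below 1 FPKM in every library. CCNE1 and E2F8, both G1/S genes, entered the test only through their 3D libraries, so their calls are no support. Without them 17 of 37 tested genes of the set and 4 of 5 tested G1/S genes were called higher. In bulk RNA a larger share of cells in a phase and more RNA per cell cannot be told apart.

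**Figure D1:**
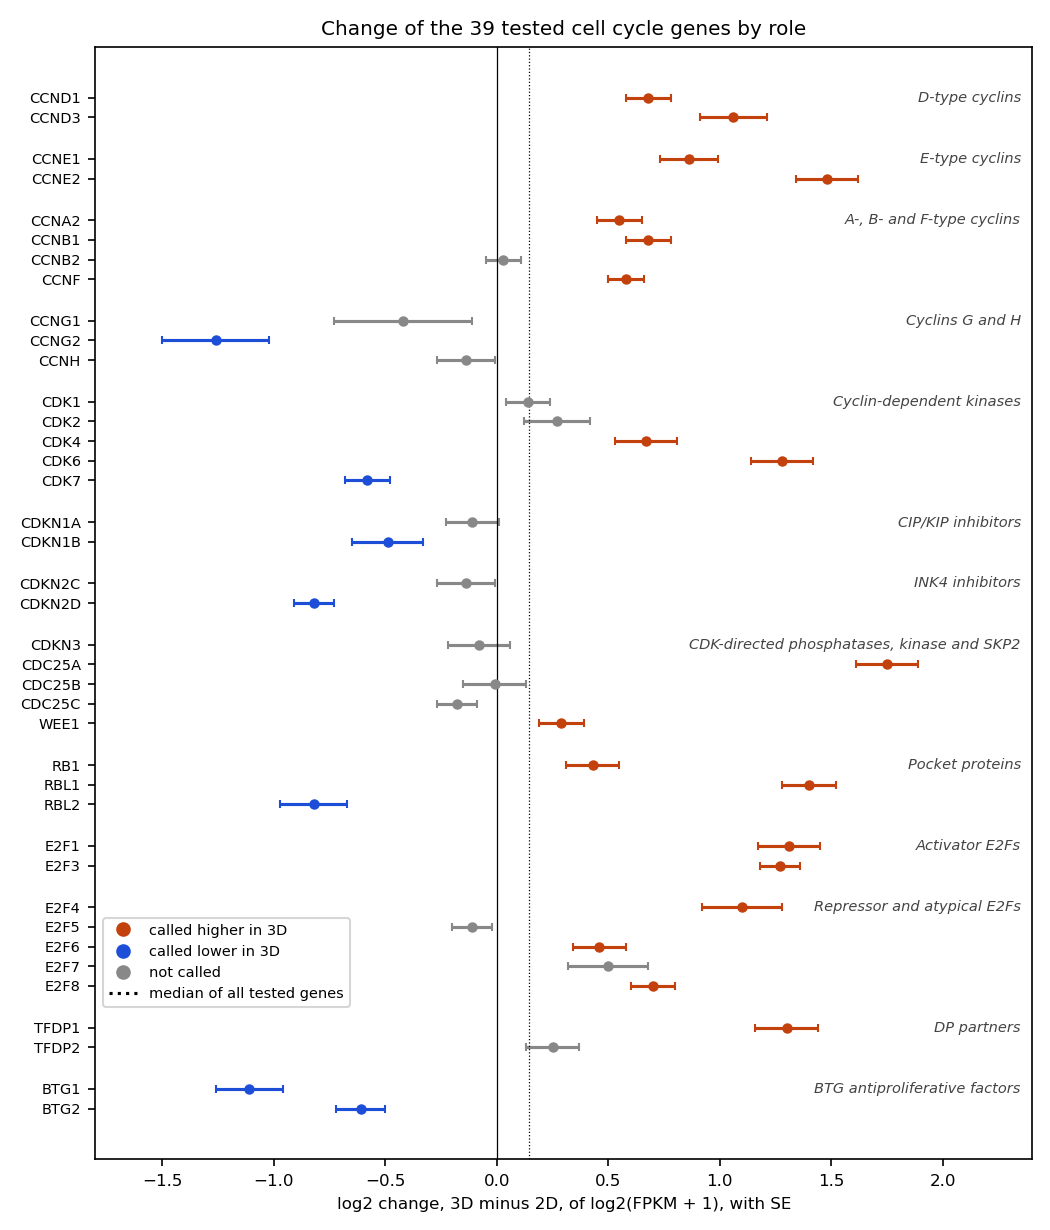
Log2 change (3D minus 2D of log2(FPKM + 1), horizontal axis) of the 39 tested genes, grouped by role down the page. Points are limma estimates with SE bars from 3 libraries per group, coloured by call, and the dotted line marks the median of all tested genes at 0.144. CDC25A lies furthest right at 1.75 and CCNG2 furthest left at -1.26.

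The D-type cyclins and their kinases receive growth signals and start the phosphorylation of RB1. CCND1, CCND3, CDK4 and CDK6 were higher in 3D, and CCND2, at trace level, had every 3D value below every 2D value. CCND1, the dominant D-type cyclin of these cells, had 147, 134 and 136 FPKM in 3D replicates 1 to 3, against 78.3, 92.8 and 87.8 FPKM in 2D replicates 1 to 3. The groups did not overlap, and the log2 change was 0.68 (SE 0.10, limma adjusted p = 0.00174). CCND3, a second D-type cyclin at a far lower level, had 5.26, 4.8 and 3.77 FPKM in 3D, against 1.45, 1.47 and 2.13 FPKM in 2D. Every 3D value lay above every 2D value, a 2.74-fold ratio of means with a log2 change of 1.06 (limma adjusted p = 0.0013, SE 0.15). CCND2, the third of the family, was barely expressed, with 0.0579, 0.0358 and 0.0172 FPKM in 3D and 0.0698, 0.108 and 0.123 FPKM in 2D. Those values stand for 11, 7 and 4 reads in 3D and 14, 21 and 25 reads in 2D. CCND2 was not tested, and in the alternatives that let it in its log2 change was -1.53 with voom on genes of at least 10 reads (adjusted p = 0.0225), added after the data were seen, and -0.09 in limma with no minimum (adjusted p = 0.14). CCND1 held 96.8% ± 0.454 of the summed D-type cyclin FPKM in 3D and 98.0% ± 0.427 in 2D (SD, n = 3 each).

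CDK6, a kinase partner of the D-type cyclins, had 17.1, 16.8 and 17.2 FPKM in 3D, against 5.3, 6.12 and 8.06 FPKM in 2D. The 3D values were nearly equal and all above the 2D values, with a 2.62-fold ratio of means and a log2 change of 1.28 (limma adjusted p = 0.000614, SE 0.14). CDK4, the other partner, had 15.1, 11.3 and 12.0 FPKM in 3D, against 8.39, 8.06 and 6.47 FPKM in 2D. Here too the groups were apart, with a log2 change of 0.67 (limma adjusted p = 0.00664, SE 0.14). CDK4 shares 1369 exonic bases with TSPAN31 on the opposite strand, and the strand setting of the authors' counting is not given in the sources used here. CDK6 held 53.2 to 59.9% of the summed CDK4 and CDK6 FPKM in 3D and 38.7 to 55.5% in 2D, ranges that overlap. With GENCODE 29 exon lengths, an alternative added after the data were seen, those ranges were 35.1 to 41.6% in 3D and 23.1 to 37.3% in 2D, so which kinase stands higher in 3D depends on the gene length used. The summed FPKM of both kinases was 29.8 ± 2.13 in 3D and 14.1 ± 0.421 in 2D (SD, n = 3 each).

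E-type cyclins activate CDK2 at the entry into S phase, and both had every 3D library above every 2D library. CCNE2 had 7.24, 5.46 and 5.94 FPKM in 3D, against 1.29, 1.55 and 1.93 FPKM in 2D. The lowest 3D library stood well above the highest 2D library, with a 3.91-fold ratio of means and a log2 change of 1.48 (limma adjusted p = 0.000398, SE 0.14). CCNE2 shares 1629 exonic bases with INTS8 on the opposite strand. CCNE1, the better known family member, had 2.32, 1.63 and 1.68 FPKM in 3D, against 0.6, 0.714 and 0.426 FPKM in 2D, which stand for 168, 122 and 150 reads in 3D and 46, 53 and 33 reads in 2D. The ratio of means was 3.24. No 2D library reached 1 FPKM, so CCNE1 passed the minimum only through the group where it was high, and its call there is no support. With no minimum on any gene its log2 change was 0.86 (limma adjusted p = 0.00826, the largest over its alternatives, which ran from 0.000618). CCNE2 held 76.9% ± 1.08 of the E-type cyclin FPKM in 3D and 72.8% ± 7.85 in 2D (SD, n = 3 each), a difference within the spread of the 2D libraries. CDK2, the kinase they activate, had 3.77, 3.68 and 5.58 FPKM in 3D and 3.35, 3.57 and 3.22 FPKM in 2D. Its groups did not overlap, but 3D replicate 3 stood far above the other libraries and the log2 change of 0.27 (SE 0.15, limma adjusted p = 0.16) was not called. Not overlapping was itself common, since 39.0% of all tested genes had every 3D library above every 2D library, and 20 of the 39 tested genes of the set did. The reverse, every 2D library above every 3D library, held for 21.9% of all tested genes and 7 of the set, so 60.9% of all tested genes and 27 of the 39 had separate groups.

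CDC25A, the phosphatase that strips the inhibitory phosphates from CDK2 and CDK1, showed the largest increase on the log2 scale among the 39 tested genes. It had 15.7, 11.4 and 11.3 FPKM in 3D, against 3.24, 3.18 and 2.76 FPKM in 2D. All 3D libraries stood far above all 2D libraries, a 4.19-fold ratio of means with a log2 change of 1.75 (limma adjusted p = 0.000313, SE 0.14). Without 3D replicate 1, its highest library, the log2 change was 1.61 (limma adjusted p = 0.000624). WEE1, the kinase that adds those inhibitory phosphates, had 1.85, 1.89 and 2.31 FPKM in 3D, against 1.38, 1.52 and 1.5 FPKM in 2D. Its log2 change of 0.29 was called (SE 0.10, limma adjusted p = 0.0393) but lost the call under 9 of its alternatives, with adjusted p between 0.0196 and 0.174 over them. SKP2, the F-box protein that marks CDKN1B for destruction, had 0.632, 0.761 and 0.838 FPKM in 3D and 0.228, 0.284 and 0.352 FPKM in 2D, and was not tested. Its low FPKM came with 422, 524 and 687 reads in 3D and 161, 194 and 251 reads in 2D. The length that turns these values into whole reads was 49905 bases, where GENCODE 29 gives 3837 exonic bases. In alternatives that let SKP2 in, its log2 change was 1.38 with voom on genes of at least 10 reads (adjusted p = 0.000553), added after the data were seen, and 0.44 in limma with no minimum (adjusted p = 0.0156).

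Of the activator E2Fs, which turn on replication genes, both measurable members were higher in 3D. E2F1 had 31.6, 27.1 and 24.1 FPKM in 3D, against 11.8, 10.7 and 8.98 FPKM in 2D. The groups lay far apart, with a 2.63-fold ratio of means and a log2 change of 1.31 (limma adjusted p = 0.000555, SE 0.14). E2F3 had 20.5, 19.9 and 21.8 FPKM in 3D, against 8.16, 7.54 and 8.37 FPKM in 2D. The groups were far apart, and the adjusted p was the smallest of the 39 genes (log2 change 1.27, SE 0.09, limma adjusted p = 0.00025). E2F2, the third activator, was close to absent, with 6, 1 and 6 reads in 3D and 2, 0 and 1 reads in 2D. TFDP1, the DP partner that most E2Fs need to bind DNA, had 33.7, 26.3 and 23.6 FPKM in 3D, against 10.5, 10.3 and 11.2 FPKM in 2D. Like E2F1 it was separate between the groups and highest in 3D replicate 1 (log2 change 1.30, SE 0.14, limma adjusted p = 0.000566). The other DP gene, TFDP2, had 1.87, 2.34 and 2.32 FPKM in 3D and 1.57, 1.47 and 2.02 FPKM in 2D, overlapping values that were not called (log2 change 0.25, limma adjusted p = 0.114).

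Among the repressor and atypical E2Fs 3 of 5 were called higher, beside 33.3% of all tested genes. The 3 include E2F8, which entered the test only through its 3D libraries. E2F4, the E2F of the DREAM complex, had 13.0, 11.7 and 11.5 FPKM in 3D, against 6.3, 5.83 and 3.53 FPKM in 2D. The groups were apart, with 2D replicate 3 the lowest, and the log2 change was 1.10 (SE 0.18, limma adjusted p = 0.00274), or 0.88 without that library (limma adjusted p = 0.00205). E2F5, the other pocket-protein-bound repressor, had 2.15, 2.01 and 2.37 FPKM in 3D and 2.34, 2.44 and 2.5 FPKM in 2D, which overlapped and were not called (log2 change -0.11, limma adjusted p = 0.325). Its exons share 969 bases with C8orf59 on the opposite strand. E2F6, which represses without pocket proteins, had 1.37, 1.8 and 1.95 FPKM in 3D, against 1.1, 1.01 and 0.773 FPKM in 2D. Its log2 change of 0.46 was called (SE 0.12, limma adjusted p = 0.0156) but not once 3D replicate 2 or 3 was left out, with adjusted p from 0.0086 to 0.0624 over its alternatives. The atypical factors E2F7 and E2F8 bind DNA without a DP partner and shut G1/S genes off late in S phase. E2F8 had 1.31, 1.0 and 1.18 FPKM in 3D, against 0.317, 0.301 and 0.364 FPKM in 2D. The ratio of means was 3.56, and as no 2D library reached 1 FPKM, E2F8 also passed the minimum only through its 3D libraries. With no minimum its log2 change was 0.70 (limma adjusted p = 0.00469), and the adjusted p ran from 0.000305 to 0.00572 over its alternatives. E2F7 had 8.32, 11.4 and 13.8 FPKM in 3D and 6.78, 7.06 and 8.67 FPKM in 2D. The groups overlapped at 3D replicate 1 and the log2 change of 0.50 just missed the threshold (SE 0.18, limma adjusted p = 0.0541). Without 3D replicate 1 it was 0.68 (limma adjusted p = 0.00993), and the adjusted p ran from 0.00993 to 0.165 over 15 alternatives. The summed FPKM of E2F1 to E2F8 was 76.6 ± 1.72 in 3D and 35.0 ± 1.78 in 2D (SD, n = 3 each), and E2F5 held 2.84% ± 0.218 of it in 3D and 6.96% ± 0.593 in 2D.

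Among the pocket proteins RBL2 was lower and RBL1 and RB1 were higher in 3D. RBL2, the pocket protein of resting cells, had 6.0, 6.46 and 7.06 FPKM in 3D, against 10.3, 11.4 and 15.4 FPKM in 2D. It was lower in every 3D library, with a log2 change of -0.82 (limma adjusted p = 0.0039, SE 0.15), or -0.66 without 2D replicate 3, its highest library (limma adjusted p = 0.00495). RBL1, the pocket protein of cycling cells and itself an E2F target, had 8.55, 7.57 and 9.38 FPKM in 3D, against 2.2, 2.83 and 2.73 FPKM in 2D. All 3D libraries were far above all 2D libraries, with a 3.28-fold ratio of means and a log2 change of 1.40 (limma adjusted p = 0.000327, SE 0.12). RB1, the tumour suppressor lost in many osteosarcomas, was expressed in both cultures, at 9.7, 8.44 and 8.45 FPKM in 3D, against 5.37, 6.56 and 7.17 FPKM in 2D. Its groups were apart but close, and its log2 change of 0.43 was called (SE 0.12, limma adjusted p = 0.0215) while the adjusted p ran from 0.0161 to 0.0967 over its alternatives. The call was lost under 5 of them: both other scalings (0.0967 and 0.0841), no minimum (0.0573), without 3D replicate 1 (log2 change 0.37, limma adjusted p = 0.0581) and without 2D replicate 1 (0.057).

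The make-up of the family is given by shares. The summed pocket protein FPKM was 23.9 ± 1.26 in 3D and 21.3 ± 3.75 in 2D (SD, n = 3 each), within the spread of the 2D libraries. RBL2 held 27.3% ± 2.22 of that sum in 3D and 57.8% ± 3.07 in 2D, RBL1 held 35.5% ± 2.01 in 3D and 12.2% ± 1.42 in 2D, and RB1 held 37.2% ± 3.04 in 3D and 29.9% ± 1.64 in 2D. The ratio of RBL1 to RBL2 was 1.43, 1.17 and 1.33 in 3D replicates 1 to 3, against 0.212, 0.249 and 0.177 in 2D replicates 1 to 3. RBL2 was the most abundant pocket protein transcript in every 2D library and the least abundant in every 3D library on the deposited FPKM, while with GENCODE 29 lengths it held 28.6 to 33.0% in 3D, above RBL1 there.

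**Figure D2:**
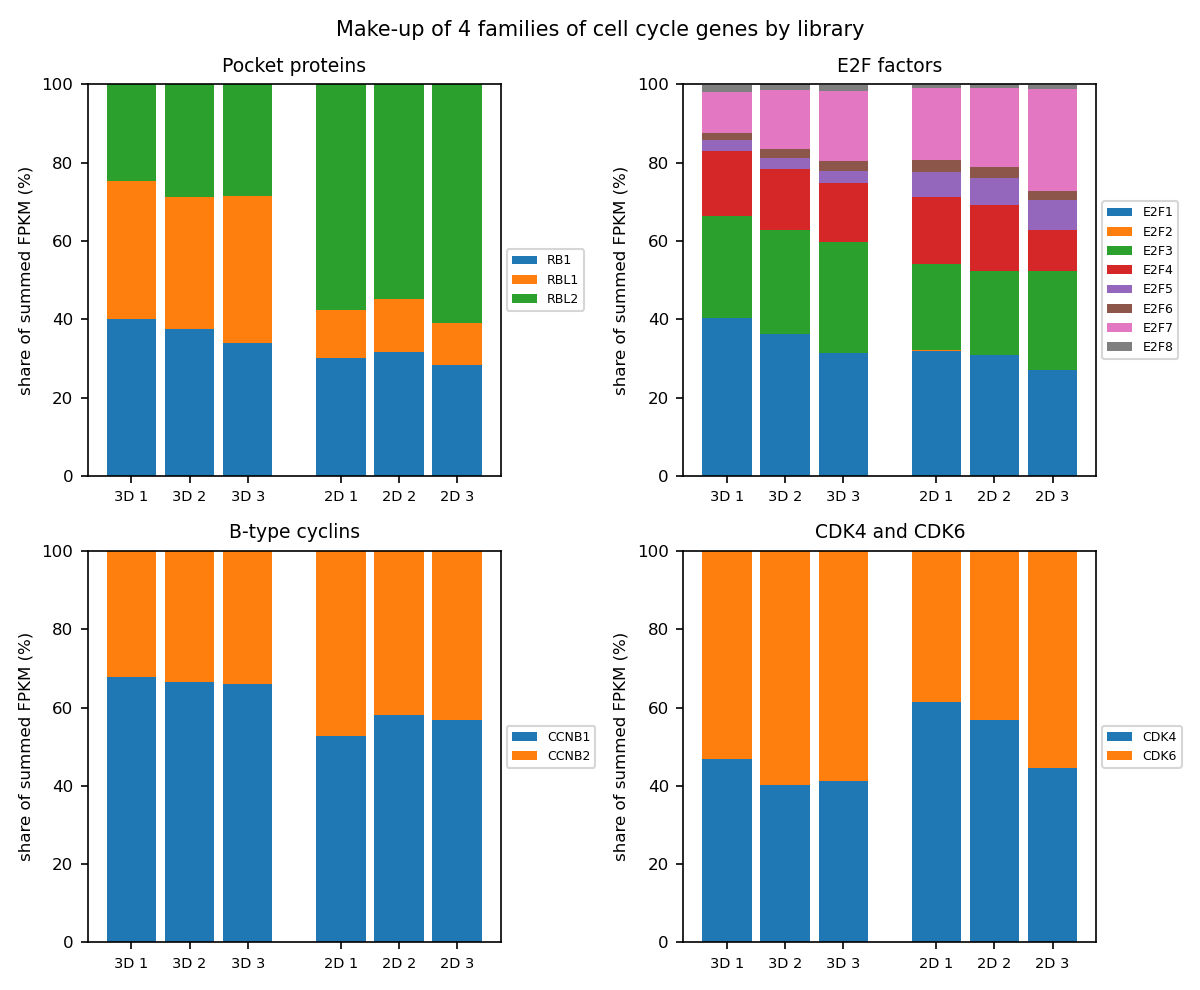
Share of the summed FPKM (%, vertical axis) held by each gene of the pocket proteins, the E2F factors, the B-type cyclins, and CDK4 with CDK6, 1 bar per library, 3D libraries left of 2D libraries. RBL2 holds 24.7 to 28.8% in the 3D bars and 54.8 to 60.9% in the 2D bars. CCNB1 holds 66.0 to 67.7% in 3D and 52.8 to 58.2% in 2D.

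Cyclins and kinases of S phase, G2 and mitosis were split. CCNA2, which drives S phase with CDK2 and G2 with CDK1, had 72.0, 62.4 and 64.9 FPKM in 3D, against 47.3, 43.1 and 44.8 FPKM in 2D. The groups were apart, with a log2 change of 0.55 (limma adjusted p = 0.00317, SE 0.10). CCNB1, the main mitotic cyclin, had 51.7, 48.0 and 49.6 FPKM in 3D, against 27.9, 34.5 and 30.1 FPKM in 2D, again with no overlap (log2 change 0.68, SE 0.10, limma adjusted p = 0.00193). CCNF, the cyclin that serves as substrate receptor of an SCF ubiquitin ligase, had 14.9, 14.6 and 14.0 FPKM in 3D, against 9.63, 8.86 and 9.65 FPKM in 2D (log2 change 0.58, SE 0.08, limma adjusted p = 0.00155). These were the called genes among the 8 of G2/M.

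The other B-type cyclin, CCNB2, was not called. It had 24.7, 24.1 and 25.5 FPKM in 3D and 24.9, 24.7 and 22.9 FPKM in 2D, overlapping values with a log2 change of 0.03 (limma adjusted p = 0.777, SE 0.08) that turned to -0.14 under median-ratio scaling. The ratio of CCNB1 to CCNB2, looked at after the values were seen, was 2.09, 2.0 and 1.94 in 3D and 1.12, 1.39 and 1.31 in 2D. CDK1, the mitotic kinase that both cyclins activate, had 18.1, 15.0 and 16.7 FPKM in 3D and 15.2, 15.2 and 14.4 FPKM in 2D. The lowest 3D library lay within the 2D range and the log2 change was 0.14 (SE 0.10, limma adjusted p = 0.255), or -0.03 under median-ratio scaling. CDC25B and CDC25C, the phosphatases that activate CDK1 at mitosis, were not called, unlike CDC25A, a contrast that was not tested itself. CDC25B had 16.5, 12.6 and 11.7 FPKM in 3D and 14.5, 12.8 and 13.3 FPKM in 2D (log2 change -0.01, SE 0.14, limma adjusted p = 0.971). CDC25C had 2.75, 2.77 and 3.02 FPKM in 3D and 3.72, 3.33 and 3.07 FPKM in 2D, so all 3D values lay just below all 2D values. Its log2 change of -0.18 was not called (SE 0.09, limma adjusted p = 0.147) but was called lower under median-ratio and upper-quartile scaling. CDKN3, a phosphatase that removes the activating phosphate from CDK2 and CDK1, had 19.5, 14.9 and 16.7 FPKM in 3D and 20.8, 18.2 and 15.2 FPKM in 2D, overlapping and not called (log2 change -0.08, SE 0.14, limma adjusted p = 0.664).

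Set side by side, the 8 genes with transcripts that peak at G1/S (CCNE1, CCNE2, CDC25A, RBL1, E2F1, E2F2, E2F7 and E2F8) and the 8 that peak in G2 and mitosis (CCNA2, CCNB1, CCNB2, CCNF, CDK1, CDKN3, CDC25B and CDC25C) differed in how far they moved. Of the G1/S genes 7 were tested and 6 were called higher, with a median log2 change of 1.31. Without CCNE1 and E2F8, which passed the minimum only through 3D, 4 of 5 were called higher, with a median log2 change of 1.4. All 8 G2/M genes were tested and 3 were called higher, a share near the 33.3% of all tested genes, with a median log2 change of 0.09. By limma 0 genes of either group were called lower, and 0 were lower at an unadjusted p under 0.05 or by voom. The mean level of the G1/S genes, as log2(FPKM + 1) over all 8, was 2.62 ± 0.09 in 3D and 1.61 ± 0.02 in 2D, and that of the G2/M genes was 4.31 ± 0.09 in 3D and 4.1 ± 0.06 in 2D (SD, n = 3 each). G1/S minus G2/M was -1.7, -1.7 and -1.67 in the 3D libraries and -2.56, -2.46 and -2.42 in the 2D libraries. The difference of the group means was 0.79, and 0.75 to 0.83 when any 1 library was left out. It depends on the pseudocount and was 1.17 with a pseudocount of 0.1. The score keeps all 8 genes of each group and was not worked out without CCNE1, E2F8 and E2F2. The 2 phase groups do not share a level, so only the shift between cultures can be read from these values. The share of reads from mitochondrial genes was 4.28 to 4.57% in 3D and 5.86 to 7.21% in 2D, and its part in these shifts was not tested.

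**Figure D3:**
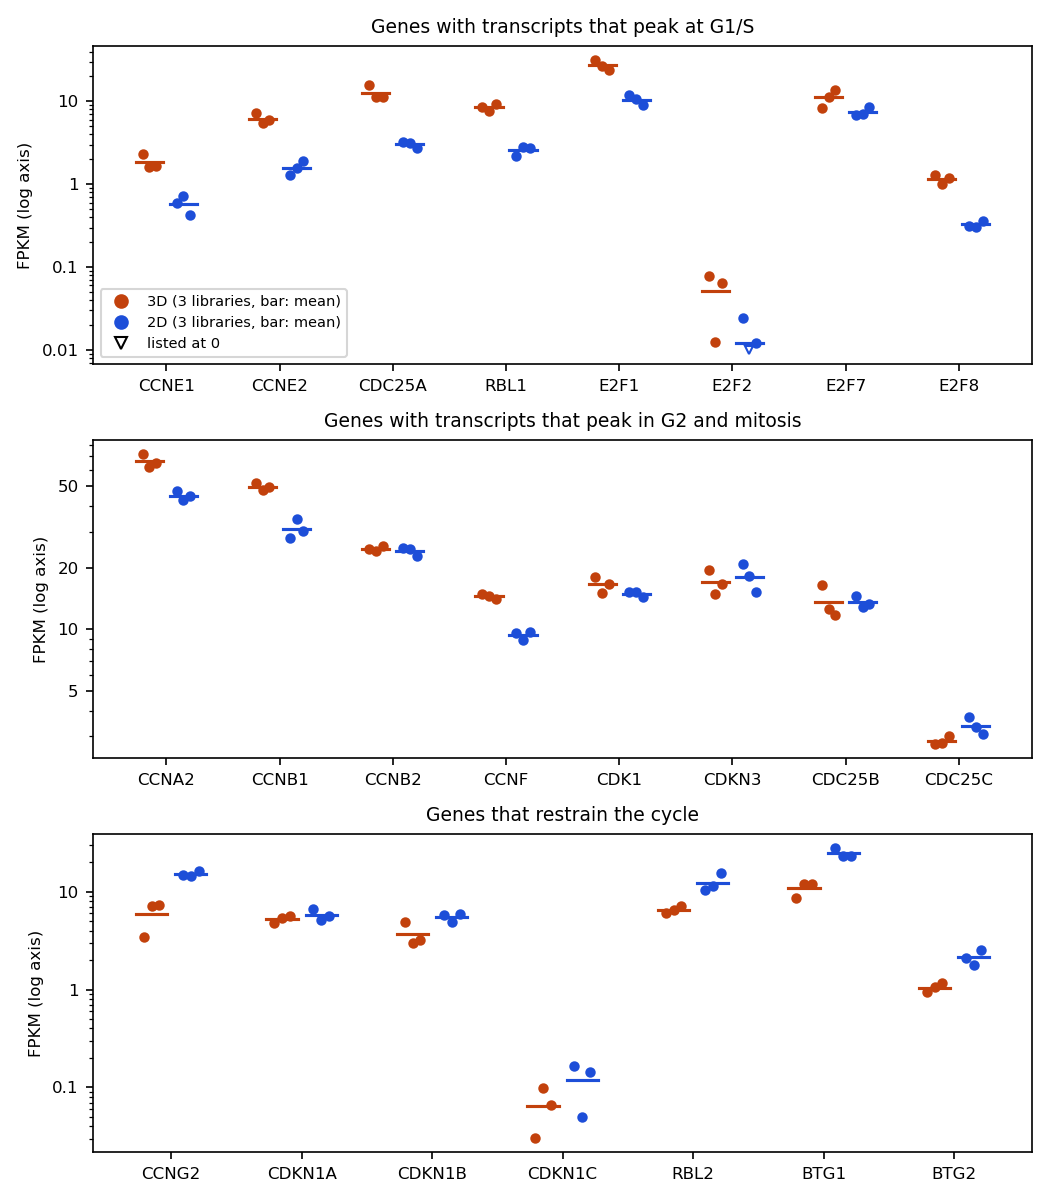
FPKM per library on log axes for the G1/S genes (top), the G2/M genes (middle) and the genes grouped as restraining the cycle (bottom). The 3D points lie left of the 2D points, with a bar at each group mean of 3 libraries. An open triangle marks the library with E2F2 listed at 0, drawn near the axis floor. CDC25A averages 12.8 FPKM in 3D and 3.06 in 2D, while CCNB2 averages 24.7 in 3D and 24.2 in 2D.

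**Figure D4:**
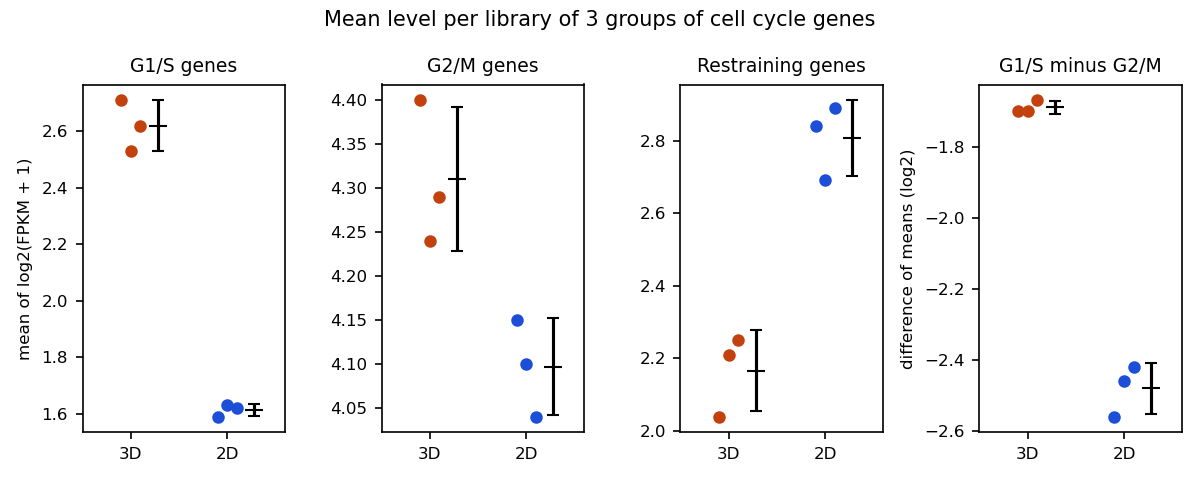
Mean of log2(FPKM + 1) per library for the G1/S genes, the G2/M genes and the restraining genes, and the G1/S mean minus the G2/M mean, with 3D left of 2D. Points are libraries, and the crosses are group means with SD of 3 libraries. Each vertical axis has its own range and does not start at 0. In the right panel the 3D libraries lie between -1.7 and -1.67 and the 2D libraries between -2.56 and -2.42.

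The promoters of the 2 phase groups were searched for elements of the cell cycle. E2F factors bind short GC-rich words, searched here as TTTCCCGC, TTTCGCGC, TTTGCCGC and TTTGGCGC. The cell cycle genes homology region, CHR, is bound by the MuvB core and was searched as TTTGAA, and the CCAAT box is bound by NF-Y and was searched as CCAAT. All were searched on both strands in RefSeq promoter windows of 300 bases on GRCh38.p14, 250 before and 50 after the transcription start. Windows were given for 37 of the 45 genes, and CCND1, CCND2, CCNE2, CDK2, CDKN1C, E2F5, E2F8 and WEE1 were not among them. An E2F word lay in a window of 4 of 6 G1/S genes (66.7%), 1 of 8 G2/M genes (12.5%) and 3.99% of all 27305 genes of the table. CHR lay in 5 of 8 G2/M genes (62.5%), 0 of 6 G1/S genes and 18.2% of all genes. CCAAT lay in 8 of 8 G2/M genes, 3 of 6 G1/S genes and 39.7% of all genes. Genes with several windows had more chances of a match, no match in the windows of the 37 genes overlapped another, and a match is a description of letters, not of binding.

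The windows of 3 G1/S genes that rose with a clear gap between groups are shown with those of 3 G2/M genes, the B-type cyclins and CDK1, of which CCNB2 and CDK1 were not called. They were picked after the values were seen. All read 5′ to 3′ on the strand of the gene, and capitals mark E2F words, CHR and CCAAT or their reverse complements. E2F1 is at chr20:33686336-33686635 and CDC25A at chr3:48188368-48188667, and RBL1 is at chr20:37095948-37096247, all on the minus strand. CCNB1 is at chr5:69166900-69167199, CCNB2 at chr15:59104896-59105195 and CDK1, in 1 of its 2 windows, at chr10:60778081-60778380, all on the plus strand.
E2F1: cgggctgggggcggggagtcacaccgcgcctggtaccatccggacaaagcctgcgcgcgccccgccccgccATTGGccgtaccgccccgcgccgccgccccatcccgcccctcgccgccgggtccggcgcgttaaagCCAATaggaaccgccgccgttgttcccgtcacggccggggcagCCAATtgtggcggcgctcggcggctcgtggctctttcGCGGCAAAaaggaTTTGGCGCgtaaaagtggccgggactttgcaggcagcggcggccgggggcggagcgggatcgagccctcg
CDC25A: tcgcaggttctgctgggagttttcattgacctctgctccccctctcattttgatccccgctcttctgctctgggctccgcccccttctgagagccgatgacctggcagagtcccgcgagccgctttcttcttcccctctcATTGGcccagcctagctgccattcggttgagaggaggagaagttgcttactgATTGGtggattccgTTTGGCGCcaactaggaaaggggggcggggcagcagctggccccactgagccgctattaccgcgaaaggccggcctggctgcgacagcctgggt
RBL1: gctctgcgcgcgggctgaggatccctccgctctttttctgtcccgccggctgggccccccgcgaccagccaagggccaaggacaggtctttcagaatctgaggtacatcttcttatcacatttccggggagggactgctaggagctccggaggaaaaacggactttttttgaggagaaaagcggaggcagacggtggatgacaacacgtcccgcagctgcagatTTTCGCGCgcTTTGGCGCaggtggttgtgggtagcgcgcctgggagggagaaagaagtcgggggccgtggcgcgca
CCNB1: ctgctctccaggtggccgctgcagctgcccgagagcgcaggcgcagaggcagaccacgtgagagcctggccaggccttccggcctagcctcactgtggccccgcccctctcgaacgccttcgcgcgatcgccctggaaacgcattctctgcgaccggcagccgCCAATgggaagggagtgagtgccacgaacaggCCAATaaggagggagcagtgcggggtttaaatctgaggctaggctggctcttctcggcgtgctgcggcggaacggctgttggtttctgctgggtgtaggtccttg
CCNB2: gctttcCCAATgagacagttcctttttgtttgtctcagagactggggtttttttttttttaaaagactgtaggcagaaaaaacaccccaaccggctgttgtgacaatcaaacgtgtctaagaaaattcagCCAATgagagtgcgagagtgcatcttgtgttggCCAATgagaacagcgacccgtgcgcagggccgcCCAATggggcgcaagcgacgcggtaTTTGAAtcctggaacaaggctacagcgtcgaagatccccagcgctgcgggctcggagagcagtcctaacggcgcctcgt
CDK1: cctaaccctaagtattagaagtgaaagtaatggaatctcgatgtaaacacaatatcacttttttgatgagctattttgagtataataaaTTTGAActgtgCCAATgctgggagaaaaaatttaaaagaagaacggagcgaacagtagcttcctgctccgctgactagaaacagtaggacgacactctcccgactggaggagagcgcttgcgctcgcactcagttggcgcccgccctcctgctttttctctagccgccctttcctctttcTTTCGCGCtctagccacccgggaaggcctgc
In E2F1 a pair of E2F words begins 33 and 20 bases before the start, the first of them on the opposite strand, and in RBL1 a pair begins 26 and 16 bases before it. CDC25A holds a single E2F word 44 bases before the start. CCNB1 and CCNB2 both hold CCAAT 87 bases before the start. CCNB2 holds TTTGAA 29 bases before it, and the CCNB1 window has no TTTGAA. Other forms of CHR were not searched, so their absence from CCNB1 cannot be read from this.

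Of the 7 genes grouped here as restraining the cycle, 5 were called lower in 3D, led by CCNG2 and BTG1. CDKN1A was not called and CDKN1C was not tested. CCNG2, an unusual cyclin that accumulates in arrested cells and is induced by FOXO factors, had 3.46, 7.15 and 7.29 FPKM in 3D, against 14.9, 14.3 and 16.2 FPKM in 2D. All 3D libraries were lower, with 3D replicate 1 lowest, and the log2 change was -1.26 (SE 0.24, limma adjusted p = 0.00443), or -0.97 without that library (limma adjusted p = 0.00119). BTG1, an antiproliferative partner of mRNA deadenylases, had 8.61, 12.1 and 12.0 FPKM in 3D, against 27.9, 22.9 and 23.0 FPKM in 2D. Its groups were far apart, with a log2 change of -1.11 (limma adjusted p = 0.00124, SE 0.15). BTG2, its paralog and a target of p53, had 0.933, 1.05 and 1.16 FPKM in 3D, against 2.08, 1.79 and 2.53 FPKM in 2D. It too was lower in every 3D library (log2 change -0.61, SE 0.11, limma adjusted p = 0.00406). CCNG1, another p53 target, had 5.65, 6.03 and 5.75 FPKM in 3D and 5.99, 5.79 and 14.8 FPKM in 2D. A single library, 2D replicate 3, stood apart. The log2 change was -0.42 (SE 0.31, limma adjusted p = 0.3), and -0.02 without it (limma adjusted p = 0.889).

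The CIP/KIP inhibitors, which bind cyclin-CDK2 complexes, were called in 1 of 2 tested members, by a narrow margin. CDKN1A (p21), the p53-induced inhibitor, had 4.74, 5.38 and 5.65 FPKM in 3D and 6.61, 5.09 and 5.59 FPKM in 2D, overlapping and not called (log2 change -0.11, SE 0.12, limma adjusted p = 0.461). CDKN1B (p27), the inhibitor of resting cells, had 4.88, 3.02 and 3.17 FPKM in 3D and 5.74, 4.86 and 5.87 FPKM in 2D. The groups met at 3D replicate 1, and the log2 change of -0.49 was called only narrowly (SE 0.16, limma adjusted p = 0.0401). It was lost in 6 alternatives, and the adjusted p ran from 0.00498 without 3D replicate 1 to 0.124 over all of them. CDKN1C (p57) was near absent, with 3, 10 and 8 reads in 3D and 17, 5 and 15 reads in 2D. With CCNG2, RBL2, BTG1 and BTG2, these 3 made up the 7 restraining genes, of which 6 were tested, 5 were called lower and 0 higher, with a median log2 change of -0.71 (0 higher also at an unadjusted p under 0.05 and by voom). Their mean level was 2.17 ± 0.11 in 3D and 2.81 ± 0.1 in 2D (SD, n = 3 each).

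The INK4 inhibitors bind CDK4 and CDK6 directly. CDKN2A, which encodes p16 and ARF, lies on chromosome 9 at 21967753 to 21995301 (GRCh38, GENCODE 29) and had 0 reads in 5 libraries and 1 read in 2D replicate 3. That 1 read follows from the length used, the smallest that gives whole reads, so it is the least the value can stand for. The FPKM limits below rest on the same length, and the reads of CDKN2B on the same rule. A count of 0 allows up to 3 reads, or 0.0242 to 0.0297 FPKM in the 3D libraries and 0.0281 and 0.029 FPKM in 2D replicates 1 and 2, for counting error only. CDKN2B (p15), next to it at 22002903 to 22009363, had 1 read in 3D replicate 1, 1 read in 2D replicate 2 and 0 in the rest. The neighbouring genes MTAP and CDKN2B-AS1, looked up after these values were seen, were listed at 0 in all 6 libraries. The family members elsewhere in the genome were expressed. CDKN2D (p19) had 2.98, 2.92 and 2.86 FPKM in 3D, against 6.28, 6.02 and 5.52 FPKM in 2D. It was lower by a clear gap, 2.04-fold by the ratio of 2D to 3D means, with a log2 change of -0.82 (limma adjusted p = 0.000562, SE 0.09). CDKN2C (p18), itself an E2F target, had 3.02, 2.97 and 2.1 FPKM in 3D and 3.29, 3.18 and 2.67 FPKM in 2D, overlapping and not called (log2 change -0.14, SE 0.13, limma adjusted p = 0.421).

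CDK7 and CCNH form the CDK-activating kinase, which also phosphorylates RNA polymerase II as part of TFIIH. CDK7 had 1.85, 2.06 and 2.0 FPKM in 3D, against 3.62, 3.74 and 3.0 FPKM in 2D. It was lower in every 3D library, with a log2 change of -0.58 (limma adjusted p = 0.00306, SE 0.10). CCNH had 3.51, 3.53 and 4.47 FPKM in 3D and 4.84, 3.56 and 4.57 FPKM in 2D, and its overlapping groups were not called (log2 change -0.14, SE 0.13, limma adjusted p = 0.426). MNAT1, the assembly factor of the same complex, was lower at 8.3 ± 0.249 FPKM in 3D and 10.5 ± 0.257 FPKM in 2D (SD, n = 3 each, limma adjusted p = 0.0153), and was singled out after its value was seen.

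The rest of the pathway is given by lists of related genes outside the set. Beside the counts of these lists stand the 33.3% of all tested genes called higher and the 18.1% called lower. Of 28 E2F target genes of DNA replication, 27 were tested, 26 were called higher and 0 lower in 3D by limma, with a median log2 change of 1.33, and 0 were lower at an unadjusted p under 0.05 or by voom. The 26 include BRCA1, which passed the minimum only through its 3D libraries, so its call is no support. It had 1.87, 1.97 and 1.42 FPKM in 3D and 0.551, 0.64 and 0.634 FPKM in 2D. MCM3 and MCM2, subunits of the replicative helicase, were at 37.8 ± 4.3 and 41.1 ± 5.45 FPKM in 3D, against 8.68 ± 0.323 and 11.0 ± 0.353 FPKM in 2D (SD, n = 3 each). CDC6, the helicase loader, and FEN1, a flap endonuclease, tied with MCM2 at a limma adjusted p of 0.000218 and were at 22.0 ± 2.46 and 36.2 ± 4.25 FPKM in 3D, against 4.69 ± 0.684 and 10.0 ± 0.661 FPKM in 2D. CLSPN, the checkpoint adaptor claspin, was at 8.83 ± 0.732 FPKM in 3D and 1.95 ± 0.146 FPKM in 2D. Of 25 further G2/M genes, all tested, 16 were called higher and 4 lower, with a median of 0.35. The share called lower was near that of all tested genes. PLK1, a mitotic kinase, was at 19.9 ± 2.96 FPKM in 3D and 10.9 ± 0.797 FPKM in 2D. CENPA, the centromeric histone, changed by 0.73 and BUB1, a spindle checkpoint kinase, by 0.62 on the log2 scale. The 4 lower genes, named after their values were seen, were NEK2, a centrosome kinase, UBE2C, the ubiquitin-conjugating enzyme of the anaphase-promoting complex, PTTG1 (securin) and CKS2, a CDK-binding subunit. Median-ratio scaling left 10 of these 25 genes higher.

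In the DREAM and MuvB list the largest changes were those of the activators. Of 8 genes 7 were tested, 6 were higher and 0 lower by limma, with a median of 0.63, and 0 were lower at an unadjusted p under 0.05 or by voom. MYBL2, which encodes B-MYB, had 72.6, 69.0 and 66.9 FPKM in 3D, against 23.2, 23.0 and 18.3 FPKM in 2D, and changed by 1.65 on the log2 scale. FOXM1 had 13.3, 21.0 and 18.3 FPKM in 3D, against 4.17, 4.6 and 6.81 FPKM in 2D, and changed by 1.58. The MuvB subunit LIN9 changed by 0.63. Of 19 ubiquitin ligase genes of the cycle 18 were tested, 9 were higher and 2 lower, with a median of 0.34. Their leading genes were ANAPC7 and ANAPC1, subunits of the anaphase-promoting complex, with changes of 1.0 and 0.74, and its inhibitor FBXO5 with 0.74. The lower ones, named after their values were seen, were FZR1 and FBXW7, the substrate receptors that target mitotic proteins and cyclin E. FZR1 had 4.39, 3.74 and 3.82 FPKM in 3D and 8.11, 7.59 and 4.38 FPKM in 2D. Its groups overlapped at 2D replicate 3 and its call was narrow (limma adjusted p = 0.0439, against 0.00864 for FBXW7).

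Cyclins and CDKs outside the core set moved about as all genes did. Of 30 such genes 23 were tested, 8 were higher and 4 lower, with a median of 0.15. CCNI, an atypical cyclin, was lower at 48.3 ± 2.53 FPKM in 3D and 94.2 ± 8.03 FPKM in 2D (SD, n = 3 each). PKMYT1, a membrane-bound relative of WEE1 that inhibits CDK1, changed by 1.02 and CDK12, a kinase of transcription elongation, by 0.79. Of 16 p53 target genes 13 were tested, 4 were higher, a share near that of all tested genes, and 1 lower, with a median of 0.04. They included PLK2 with 1.31, the p53 inhibitor MDM2 with 0.62 and the pro-apoptotic BBC3 with -1.35. All genes named from these lists had a limma adjusted p between 0.000185 and 0.0439 and were called.

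**Figure D5:**
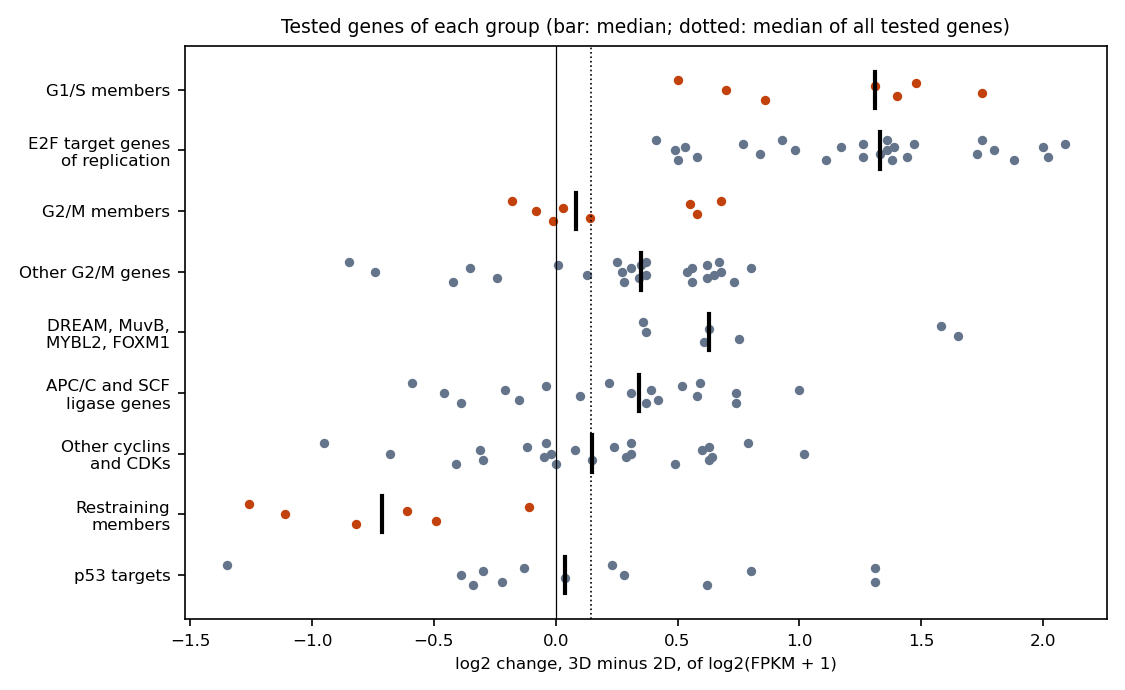
Log2 change (3D minus 2D of log2(FPKM + 1), horizontal axis) of each tested gene in 3 groups of the core set (red) and 6 lists of related genes outside it (grey). Each point is 1 gene, the short bar is the median of the group, and the dotted line is the median of all tested genes at 0.144. The medians are 1.31 for the G1/S genes, 0.09 for the G2/M genes and -0.71 for the genes grouped as restraining.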

How the data were processed

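RNA extracted with TRIzol was enriched for poly(A), per the labels' protocols, and sequenced in 6 libraries. The authors deposited 1 table of FPKM values for 62703 Ensembl rows. The submitters' processing notes name FastQC, fastp, HISAT2, StringTie, edgeR and GRCh38, with neither version nor role. Annotation release, gene lengths, strand setting and treatment of multi-mapping reads were not given in the sources used here. FPKM values depend on those lengths and on library totals, so genes with very many reads lower all others.

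The deposited FPKM were taken to log2(FPKM + 1). Genes with at least 1 FPKM in at least 3 libraries were tested with limma 3.58.1 (trend and robust, statmod 1.5.0, R 4.3.3) over all 6 libraries, without covariates, 2-sided, with Benjamini-Hochberg adjustment over 12843 genes and a threshold of 0.05. With 3 libraries against 3, the smallest 2-sided exact permutation p is 0.1. The test was tested on simulated data. Set tests were not used, and levels, shares and scores of the set are descriptions.

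The set and the lists were chosen with earlier results of these data known. Every gene of the set is named, and of each related list the 3 genes with the smallest adjusted p and any tied with them, with other choices marked in the text. The name table used for symbols holds 62625 of the rows, and positions are from GENCODE 29.

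Depth was worked out from the FPKM values, since each equals whole reads, multiplied by a library factor and divided by a gene length. Whole reads within 0.01 reads in every library were found for 33238 of 33243 genes above 0, with lengths up to 150000 bases, and 11450 of these had the GENCODE 29 exon length. Of the 45 genes, 44 had a length above it, by a median of 1.67-fold, so levels of different genes are compared with both lengths where the order matters. Exons of 18 of the 45 genes overlap an exon on the opposite strand. Alternatives were other scalings, filters, pseudocounts, protein-coding genes alone, voom on the worked-out reads, a replicate block and leaving out each library.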

Additional observations from a re-analysis of the deposited data

How the results depend on the processing

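Of the 26 genes of the set called with limma, 22 kept their call under every one of 15 alternatives that tested them, and CDKN1B, E2F6, RB1 and WEE1 lost it under at least 1. The set had 19 genes higher and 7 lower. It had 17 and 8 under median-ratio and under upper-quartile scaling, 20 and 7 with voom, and 15 and 4 with a minimum of 5 FPKM, where 25 were tested. Leaving out 1 library gave 15 to 18 higher and 6 to 7 lower. The G1/S genes called higher were 4 to 6 without 1 library: without a 3D library CCNE1 and E2F8 cannot reach 1 FPKM in 3 libraries and were not tested. Of the G2/M genes 1, CDC25C, became lower under both scalings, and 3 restraining genes were lower with a minimum of 5 FPKM. Over all genes, 4272 were higher and 2328 lower. Median-ratio scaling moved the median log2 change of all genes to 0.007, against 0.144, and gave 3148 higher and 3148 lower. Upper-quartile scaling gave 3255 and 3061, and a minimum of 5 FPKM gave 2134 and 1319. Changes that turned their sign were not called on either side. CCNB2 went to -0.14 with median-ratio scaling, -0.12 with upper-quartile scaling and -0.00442 without 2D replicate 3, and CDK1 to -0.03 and -0.01 under these scalings. Without 1 library CCNB2 ran from -0.00442 to 0.05, CDKN3 from -0.19 to 0.02 and CDC25B from -0.15 to 0.09. CDKN3 went to 0.00635 without 3D replicate 2 and 0.02 without 2D replicate 1. CDC25B went to 0.04 without 3D replicate 2, 0.09 without 3D replicate 3 and 0.04 without 2D replicate 1. With median-ratio scaling 10 genes of the further G2/M list were higher and 3 of the p53 list lower. Without 1 library, the further G2/M list had 10 to 14 higher (10 without 3D replicate 3) and 2 to 4 lower genes (2 without 3D or 2D replicate 2). The ligase list had 1 to 2 lower (1 without any 3D library or 2D replicate 1), the other cyclins and CDKs 2 to 5 lower (2 without 3D replicate 2), and the p53 list 1 to 2 lower (2 without 3D replicate 3 or 2D replicate 1). G1/S minus G2/M differed by 1.17 with a pseudocount of 0.1. With replicate numbers as a block, 19 genes of the set were higher and 7 lower, 4291 and 2382 of all genes. E2F7 was then called (adjusted p = 0.0172) and WEE1 was not (adjusted p = 0.055). Deviations of same-numbered libraries correlated at 0.0837, -0.0172 and 0.184, and 3D replicate 1 correlated best with 2D replicate 2 (0.104), so the libraries share only a number. The causes of these moves were not tested, beyond the smaller number of genes or libraries in some. Depth limits CCND2, CDKN1C, CDKN2A, CDKN2B and E2F2, which had at most 25 reads in any library.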
